A study of Mus musculus with 2 samples.

Results

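Plasmacytoid dendritic cells (pDCs) made up 60 of the 12078 Cd45+ cells kept from B16-F10 melanomas of Irg1+/+ and Irg1-/- mice. They were chosen by their own UMIs (unique molecular identifiers, each standing for 1 captured mRNA molecule): a cell had to hold at least 2 Siglech UMIs, at least 4 UMIs over Siglech, Ccr9, Cox6a2 and Klk1 together, and at most 2 over the macrophage complement genes C1qa, C1qb and C1qc. This gave 31 of 6284 cells in the library labelled Irg1+/+ and 29 of 5794 in the library labelled Irg1-/-. The levels of these 7 genes in the gated cells are therefore a description of the selection, and since no gene is independent of how cells group, differences between pDCs and other cells are described without a test.

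The study inoculated 200000 B16-F10 cells, a melanoma line of C57BL/6 origin, under the skin of C57BL/6 mice with both or neither copy of Irg1 intact, and took the tumors on day 10. Irg1, listed under its current symbol Acod1, encodes the enzyme that makes itaconate from cis-aconitate. The study's methods give its mice as females of 6 to 10 weeks (the upper part of this range for its subcutaneous tumor models). They give the Irg1-/- strain as backcrossed onto C57BL/6J and say that the analysed mice came from the breeding they describe. For each genotype, 100 mm3 of tumor from each of 3 mice was combined into 1 sample before 6000 Cd45+ cells were sorted and captured on the BD Rhapsody microwell system. The files hold 6408 and 5896 barcodes, of which 6284 and 5794 passed the stated limits of more than 200 genes and under 10% mitochondrial UMIs. The genotype is that of the mice, and the labels name no change in the B16-F10 cells, which both groups received. With 1 library per genotype there are no replicates and no test between genotypes, and every interval below is a 95% interval that covers counting error only. Where a pair of values is given, the library labelled Irg1+/+ comes first, and log2 ratios between the libraries are those of the library labelled Irg1-/- over the other.

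Plasmacytoid dendritic cells circulate through lymphoid organs and inflamed tissue and are known for secreting large amounts of type I interferon when Tlr7 or Tlr9 meets nucleic acid in their endosomes. Their identity is kept by the E protein Tcf4, which binds E-box motifs, against its inhibitor Id2, which favours conventional dendritic cells (cDCs). Siglech is a sialic acid-binding receptor that signals through the adaptor Tyrobp, Ccr9 is a homing receptor for the gut and thymus chemokine Ccl25, Cox6a2 is the heart and muscle form of a cytochrome c oxidase subunit, and Klk1 is a tissue kallikrein, a secreted serine protease.

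Tcf4, 1 of the factors higher in the gated cells without having been used to select them, recognises the E-box letters CANNTG. The bases before the transcription start of 3 of the 4 selecting genes are therefore shown. These are the 250 bases before each start in RefSeq (build GRCm38.p6, all on the + strand, written 5′ to 3′), at chr7:55767934-55768183 for Siglech, chr9:123766961-123767210 for Ccr9 and chr7:44225110-44225359 for Klk1. Capitals mark each match to CANNTG, a motif that reads the same class of letters on both strands.
Siglech: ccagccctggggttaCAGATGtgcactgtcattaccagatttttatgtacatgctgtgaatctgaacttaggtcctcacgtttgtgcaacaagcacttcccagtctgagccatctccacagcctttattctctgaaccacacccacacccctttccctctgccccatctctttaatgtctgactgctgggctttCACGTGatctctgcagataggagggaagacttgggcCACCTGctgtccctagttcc
Ccr9: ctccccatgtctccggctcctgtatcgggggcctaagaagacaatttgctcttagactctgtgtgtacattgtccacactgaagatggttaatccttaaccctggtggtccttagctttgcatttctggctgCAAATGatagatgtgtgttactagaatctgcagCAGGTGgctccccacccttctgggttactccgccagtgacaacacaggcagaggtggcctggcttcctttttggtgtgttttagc
Klk1: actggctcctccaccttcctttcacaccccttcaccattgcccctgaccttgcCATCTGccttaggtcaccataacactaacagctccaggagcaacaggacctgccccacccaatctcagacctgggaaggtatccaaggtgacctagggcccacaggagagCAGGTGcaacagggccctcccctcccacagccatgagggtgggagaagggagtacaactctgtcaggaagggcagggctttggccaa
There were 3 matches before Siglech, 2 before Ccr9 and 2 before Klk1. Such a match was found in 66.2% of all 32851 RefSeq windows of the same length, so the letters themselves are common. Of the 20 genes highest in pDCs over other cells, 15 had a window in this table and 11 of those (73.3%) held a match. Some had more than 1 window (3 for Lrp8 and for Fam214a, 2 for Cyb561a3). This share per gene is therefore not directly comparable with the share per window. A match is only a run of letters and no binding was measured here.

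The share of pDCs among kept cells was 0.493% for the library labelled Irg1+/+ (exact Clopper-Pearson interval 0.335 to 0.699), and for the library labelled Irg1-/- it was 0.501% (0.335 to 0.718). The log2 ratio of these shares was 0.02, with an interval of −0.76 to 0.80. The gated cells held 143169 and 140453 UMIs outside the 13 mitochondrial genes, with a median per cell of 4755 (range 945 to 7639) and 4719 (661 to 10211). The median number of genes per cell was 2231 and 2287. Depth was thus close between the libraries, and 1 UMI stood for 6.98 and 7.12 CPM, a gene's UMIs scaled to the same total in each set of cells. The median mitochondrial share of pDCs was 4.06% and 3.79%, against 2.82% and 2.47% in the other kept cells.

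All 4 selecting genes were found in 16 of the 31 and 14 of the 29 cells, and 3 of them in a further 8 and 9. Siglech was at 3443 CPM in the pDCs of the library labelled Irg1+/+ and 2762 CPM in those of the library labelled Irg1-/-, against 21.1 and 18.1 CPM in all other kept cells. Ccr9 stood at 1572 and 1744 CPM and Cox6a2 at 517 and 627 CPM. Klk1 was at 691 and 1267 CPM, but a single cell of the library labelled Irg1-/- held 64 of its 178 UMIs there, and kallikrein genes are a family of close copies among which reads may be split. The plot of pDC genes in each cell shows these 4 beside 6 genes that did not choose the cells.

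**Figure D1:**
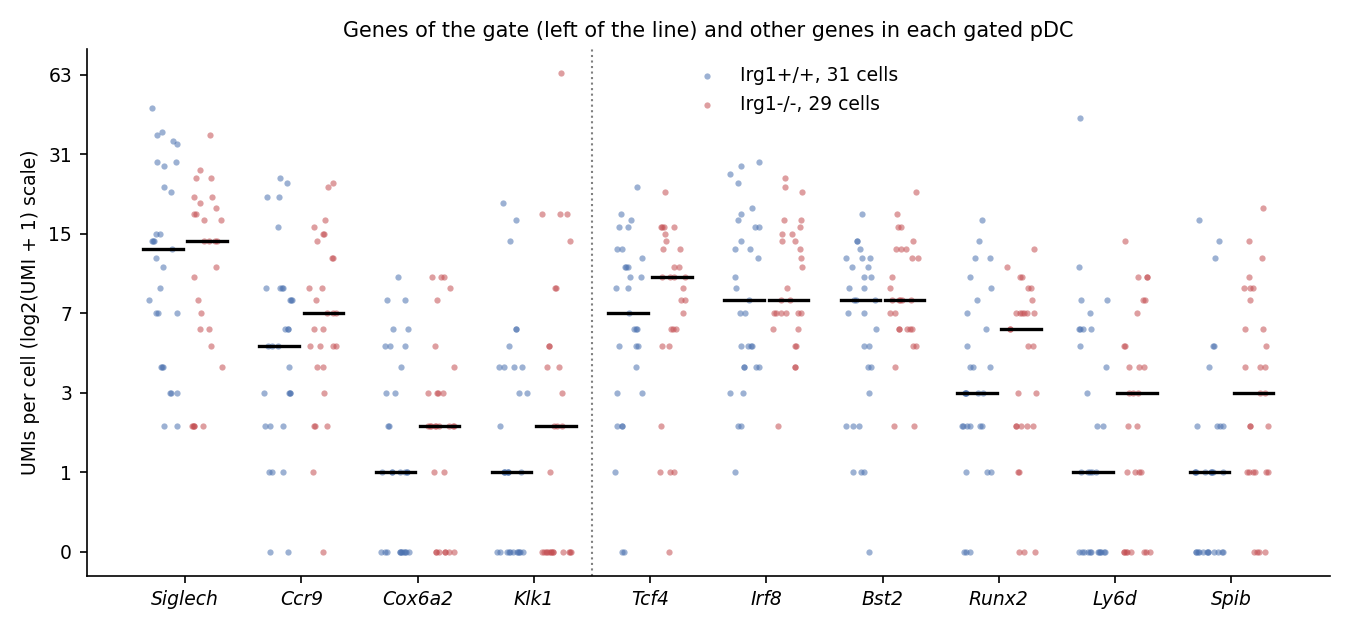
UMIs per cell on a log2(UMI + 1) scale (y axis) of 10 genes (x axis) in each gated pDC, 1 point per cell, for the library labelled Irg1+/+ (blue, 31 cells) and the library labelled Irg1-/- (red, 29 cells), with a black line at the median; the 4 genes left of the dotted line chose the cells. Most cells hold UMIs of Tcf4, Irf8 and Bst2 besides the selecting genes, while Spib was found in 19 of 31 and 25 of 29 cells.

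Just inside the gate, 4 and 1 cells had a sum of 4 to 6 UMIs over the 4 genes, with Tcf4 at 312 and 3043 CPM. Just outside, 1 cell of the library labelled Irg1+/+ had 1 Siglech UMI with a sum of at least 3 and no Tcf4 UMI, and 2 cells of the library labelled Irg1-/- had at least 2 Siglech UMIs with a sum of 2 to 3 and Tcf4 at 1907 CPM. Among the barcodes removed for their mitochondrial share (124 and 102), none met the gate.

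The limit on C1q UMIs removed more cells than it kept. Without it 74 and 63 cells met the other thresholds, of which 36 and 29 held 3 to 10 C1q UMIs and 7 and 5 held more than 10. Tcf4 stood at 1990 and 1952 CPM in the cells with 3 to 10 C1q UMIs, beside 1788 and 1908 CPM in the gated pDCs and 27.7 and 19.6 CPM in gated T cells. Spib was at 732 and 672 CPM in them and Runx2 at 913 and 989 CPM. Cells with 3 to 10 C1q UMIs thus carried pDC genes at levels near those of the gated cells. Cells with more than 10 differed: their median UMI count was 17361 and 20552, Tcf4 was at 348 and 508 CPM, and Lyz2, the lysozyme of macrophages, stood at 4213 and 3760 CPM. C1q UMIs were also found beside T cell genes: of 1747 and 913 cells with at least 3 UMIs of Cd3d, Cd3e and Cd3g, 66.0% and 63.1% held at least 3 C1q UMIs. These cells had a median of 7450 and 7684 UMIs, against 3130 and 2562 in gated T cells. Their Lyz2 level was 3736 and 3068 CPM, against 1838 and 1478 CPM, so they are not shown to be T cells alone. Whether such C1q UMIs come from the cells themselves, from free RNA or from 2 cells under 1 barcode cannot be told apart here. For the comparisons between libraries, the median of most lists and the ratio of many genes are therefore also given in the cells with 3 to 10 C1q UMIs (below, the C1q 3 to 10 cells), a comparison added after the data had been seen.

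**Figure D2:**
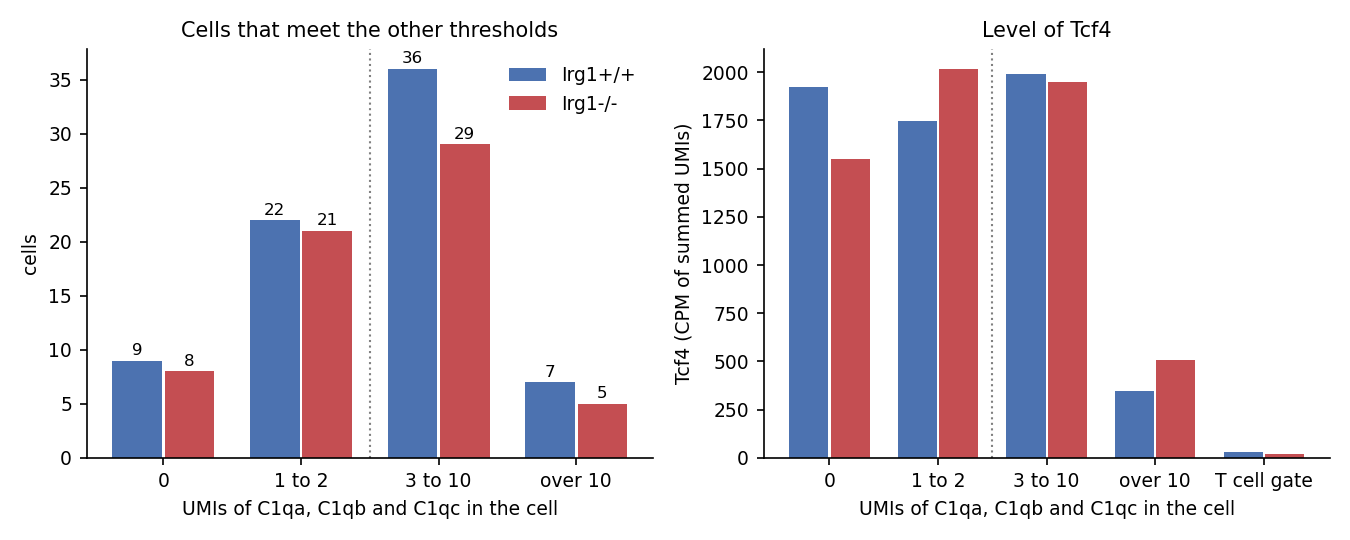
Number of cells that met the thresholds on Siglech and on the 4 genes (left) and their Tcf4 level in CPM, with gated T cells for comparison (right), by the C1q UMIs in the cell (x axis), as bars for each library without error bars; the dotted line is the limit of the gate. Tcf4 is between 1548 and 2018 CPM in cells with 0 to 10 C1q UMIs, 348 and 508 CPM in cells with more than 10, and 27.7 and 19.6 CPM in gated T cells.

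Many genes that did not choose the cells were higher in pDCs. Of 1178 genes with at least 50 UMIs in pDCs over both libraries, 80 (6.79%) were at least 4-fold higher in pDCs than in all other kept cells in each library, and 5 (0.424%) at least 4-fold lower. Genes enter by their UMIs in pDCs, which favours genes high there and bars most that are low, so the 2 counts are not to be set against each other. Against kept cells without any that met the Siglech and sum thresholds, the count was again 80 (6.79%). With at least 20 UMIs the counts were 168 of 3101 (5.42%) higher and 32 (1.03%) lower. The list of 36 pDC genes outside the gate had 34 members with at least 20 UMIs, and 26 of these were past 4-fold in each library, with a median log2 ratio over other cells of 3.74 and 3.66. This list was chosen with earlier results of these data known, so its count is a description and no separate support.

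Tcf4 had 256 and 268 UMIs, or 1788 CPM (1576 to 2021) and 1908 CPM (1686 to 2151). Other kept cells held 85.2 and 108 CPM, a log2 difference of 4.39 and 4.14. Among the cell types gated for comparison, B cells came next with 270 and 353 CPM, followed by type 2 cDCs (cDC2) with 227 and 158 and type 1 cDCs (cDC1) with 106 and 123. Runx2, a Runt factor needed for pDCs to leave the bone marrow, was at 1013 and 1082 CPM against 90.2 and 86.1 CPM. Bcl11a, a zinc finger factor required for pDC development, was at 468 and 527 CPM against 13.7 and 26.1 CPM. Irf8, shared with cDC1, was at 2326 and 2228 CPM against 519 and 624 CPM. Id2 had 27 and 17 UMIs in pDCs, or 189 and 121 CPM, against 794 and 662 CPM in other cells.

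Several surface genes of pDCs were also above other cells. Bst2, which tethers enveloped viruses and is the antigen of a pDC antibody, was at 1600 and 1922 CPM against 177 and 249 CPM. Ly6d, a mark of lymphoid-biased progenitors and B cells, was at 852 and 755 CPM, beside 794 and 824 CPM in gated B cells and 13.2 and 14.0 CPM in all other kept cells. A single pDC of the library labelled Irg1+/+ held 43 of its 122 UMIs there. Ly6c2 was at 3367 and 5311 CPM against 770 and 1649 CPM. Mzb1, often named as a pDC gene, had no UMI in the gated cells, and only 1 and 2 UMIs in all other kept cells. Ptprcap had none in any kept cell, so neither gene tells about pDCs in these files.

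**Figure D3:**
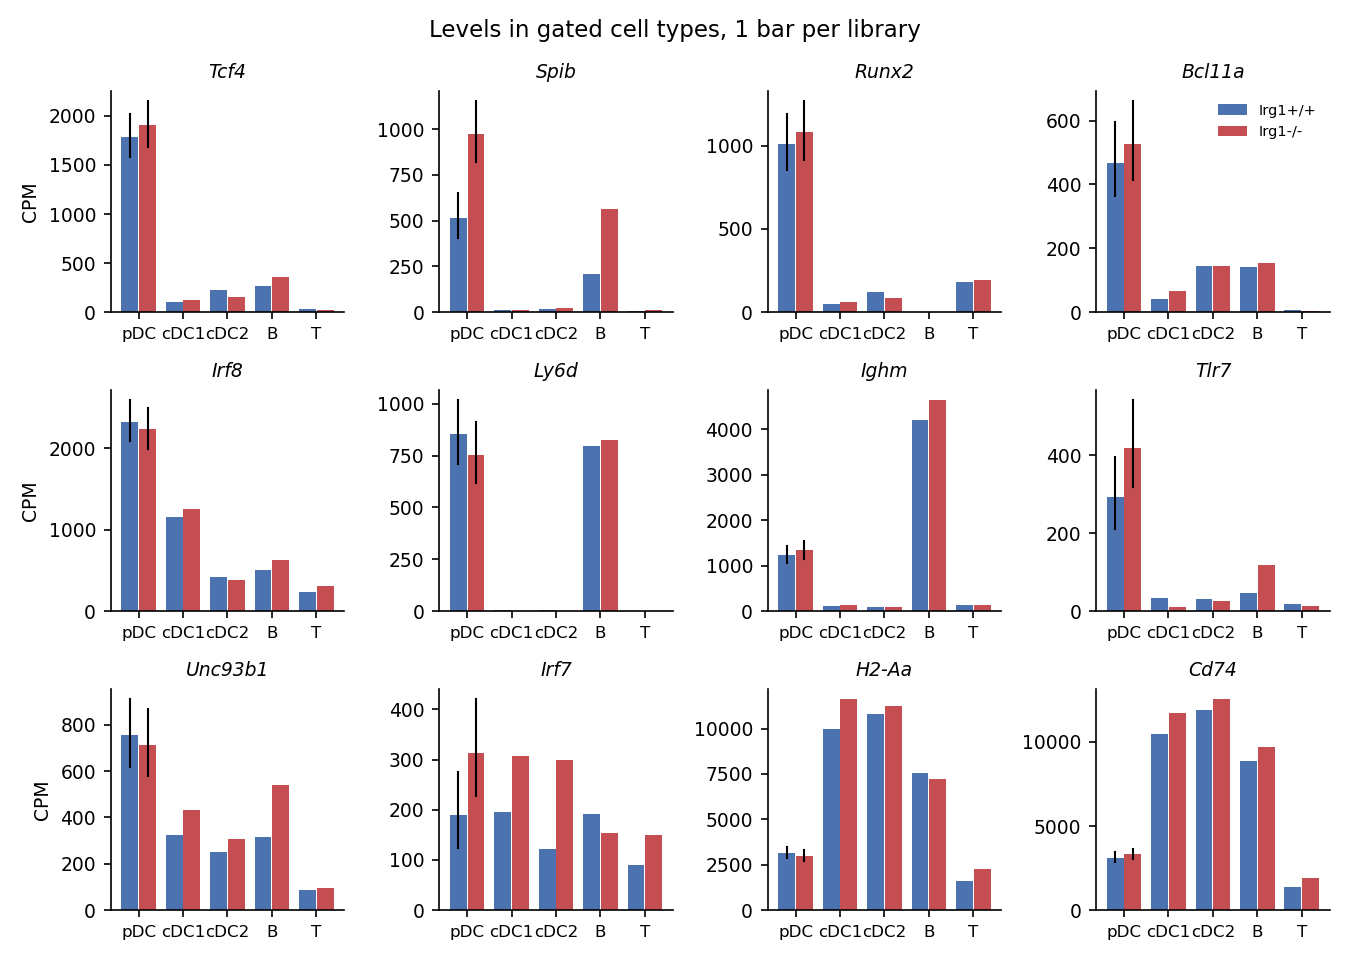
Levels in CPM (y axes, each with its own scale from 0) of 12 genes in gated pDCs, cDC1, cDC2, B cells and T cells, with a blue bar for the library labelled Irg1+/+ and a red bar for the library labelled Irg1-/-, and a vertical line on the pDC bars for the 95% Poisson interval. Tcf4 and Runx2 are highest in pDCs in both libraries, while Ly6d is also high in B cells and H2-Aa is lower in pDCs than in both kinds of cDC.

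The 20 genes highest over other cells (at least 50 UMIs, a UMI in at least 20% of pDCs of each library, outside the gate) were led by Paqr5, a membrane receptor of the progestin and adipoQ family. It had 32 and 50 UMIs, or 224 and 356 CPM, against 2.05 and 2.59 CPM, a log2 difference of 6.78 and 7.11. Cd300c, an immunoglobulin-like receptor, followed at 279 and 328 CPM against 3.34 and 2.96 CPM, and then Smim5, a small membrane protein, at 168 and 242 CPM against 2.48 and 3.498 CPM. These 3 were nearly absent outside pDCs. Further members included the receptor phosphatase Ptprf (log2 differences 6.63 and 5.80), the immunoglobulin light chain constant gene Iglc3 (5.91 and 5.69), the glutamate receptor subunit Gria3 (5.86 and 5.21), the endocytic adaptor Pacsin1 (4.70 and 5.41), the Fc receptor-like gene Fcrla (4.62 and 4.61), the lipoprotein receptor Lrp8 (4.49 and 5.37), the sodium pump subunit Atp1b1 (4.44 and 4.64), the lysosomal reductase Cyb561a3 (4.37 and 4.86) and the Ly49 family receptor Klra17 (5.16 and 3.96). Gated B cells held Fcrla at 667 and 695 CPM, above the 426 and 285 CPM of pDCs. They held Iglc3 at 477 and 271 CPM, beside 279 and 306 CPM, and Ly6d at 794 and 824 CPM, beside 852 and 755 CPM. Fcrla, Iglc3 and Ly6d were thus shared with B cells. Other members of the 20 were found there below the pDC level, among them Spib at 207 and 565 CPM and Bcl11a at 143 and 153 CPM. Rpgrip1, Mctp2, Phc1 and Fam214a completed the 20 with Ly6d, Spib, Bcl11a and Tcf4.

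The 5 genes at least 4-fold lower in pDCs were Lyz2, Il1b, Cxcl2, Ccl5 and Gbp2. Lyz2 stood at 978 and 1225 CPM against 5326 and 5556 CPM in other cells. The cytokine Il1b stood at 244 and 235 CPM against 1389 and 1584 CPM, and the neutrophil chemokine Cxcl2 at 321 and 263 CPM against 1656 and 1284 CPM. Ccl5, a chemokine, stood at 237 and 235 CPM against 1198 and 1436 CPM, with gated T cells at 3291 and 2706 CPM, and Gbp2, an interferon-induced GTPase, at 154 and 228 CPM against 692 and 1048 CPM. Gated B cells held Lyz2 at 1239 and 1248 CPM, Il1b at 238 and 306 CPM and Cxcl2 at 334 and 259 CPM. They held Ccl5 at 334 and 200 CPM and Gbp2 at 175 and 483 CPM. The part of free RNA in the pDC levels of these 5 genes was not tested.

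Between the libraries, 13 of 1182 genes with at least 50 UMIs (1.1%) were at least 2-fold higher in the pDCs of the library labelled Irg1-/- and 8 (0.677%) at least 2-fold lower. With at least 20 UMIs these were 107 of 3107 (3.44%) and 130 (4.18%), and 49.7% of the 3107 had a log2 ratio above 0. Their median log2 ratio was −0.00, and the counting interval left out 0 for 277 of them. The pDC genes outside the gate had a median of 0.27, with 26 of 34 above 0 and 1 past 2-fold, Upb1, an enzyme of pyrimidine breakdown with 13 and 26 UMIs. The median of the same 34 genes was −0.18 in the C1q 3 to 10 cells and 0.31 in all other kept cells. Tcf4 had a log2 ratio of 0.09 (−0.16 to 0.35), Runx2 0.10 (−0.24 to 0.43) and Irf8 −0.06 (−0.29 to 0.16). In the C1q 3 to 10 cells these were −0.03, 0.12 and −0.09.

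Spib, the Ets factor that acts with Tcf4 in pDCs, was the pDC regulator with the largest difference between the libraries among those listed and measured with at least 50 UMIs. It had 74 and 137 UMIs, or 517 CPM (406 to 649) and 975 CPM (819 to 1153), a log2 ratio of 0.91 (0.50 to 1.34). After each cell was thinned to 2000 UMIs, 8 of 28 cells (28.6%, 13.2 to 48.7) and 19 of 26 cells (73.1%, 52.2 to 88.4) held a Spib UMI, with 3 shallower cells left out in each library. Before thinning the shares were 61.3% and 86.2%, and in thinned T cells, which should lack the gene, 0.426% and 1.65%. Spib was thus above background in both libraries. These intervals count cells of 1 library each and are no test between genotypes. The difference varied with the C1q UMIs of the cells: Spib was at 621 and 759 CPM in gated cells with 0 C1q UMIs, 485 and 1042 CPM in those with 1 to 2, and 732 and 672 CPM in the C1q 3 to 10 cells (log2 ratio −0.12). Among these sets of cells the difference was thus largest in the gated cells with 1 to 2 C1q UMIs. It was not confined to pDCs: the log2 ratio of Spib was 0.42 in all other kept cells, and gated B cells held 207 and 565 CPM.

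Other lineage factors had few UMIs. Irf4, which promotes cDC2, had 28 and 9 UMIs, a log2 ratio of −1.56 (−2.88 to −0.49), but 1.75 in the cells with 3 to 10 C1q UMIs. Of 16 factors with at least 20 UMIs, it alone was past 2-fold lower, a share near the 4.18% of all genes, and none was past 2-fold higher (against 3.44%). Cbfa2t3, a transcriptional corepressor, had 28 and 48 UMIs (0.79, 0.10 to 1.53), and −0.20 in the cells with 3 to 10 C1q UMIs. The median of the 16 was 0.09, and −0.07 in the C1q 3 to 10 cells.

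The machinery that senses nucleic acid was present. Tlr7, the endosomal receptor for single-stranded RNA, had 42 and 59 UMIs, or 293 CPM (211 to 397) and 420 CPM (320 to 542), against 57.6 and 57.1 CPM in other cells. Tlr9, the receptor for CpG DNA, had only 6 and 7 UMIs. Unc93b1, which carries both receptors to the endosome, was at 754 and 712 CPM against 263 and 310 CPM. Pld4, an endosomal nuclease, was at 1083 and 1032 CPM against 194 and 237 CPM, and Slc15a4, an endolysosomal transporter needed for interferon output, had 15 and 28 UMIs. On the list of sensing genes 19 had at least 20 UMIs. Of these, 3 were at least 4-fold above other cells in each library (against 5.42% of all genes): Tlr7, Tlr12 and Pld4. Tlr12 counts here only by its place on that list. None of the 19 was past 2-fold between the libraries (against 3.44% higher and 4.18% lower), and their median log2 ratio was 0.10, and 0.016 in the C1q 3 to 10 cells. Irf7, the factor that drives interferon alpha genes, had 27 and 44 UMIs, or 189 and 313 CPM (log2 ratio 0.72, 0.01 to 1.48, and 0.81 in the C1q 3 to 10 cells), against 119 and 236 CPM in other cells.

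No interferon transcript was seen in pDCs. All 20 listed type I and type III interferon genes had 0 UMIs in both libraries, which allows up to 20.95 and 21.36 CPM for each gene by a limit of 3 counts. In all other kept cells the 20 genes summed to 3.79 and 1.31 CPM, led by Ifnb1 with 152 and 39 UMIs. A level like that of other cells was below 1 UMI in pDCs and not detectable at this depth. Interferon alpha genes are near-identical copies, among which reads may be split or dropped. Of the interferon receptor genes, Ifnar1 was at 293 and 363 CPM against 131 and 125 CPM, and none of 7 with at least 20 UMIs was past 2-fold between the libraries (against 3.44% of all genes higher and 4.18% lower) (median 0.25, and 0.014 in the C1q 3 to 10 cells).

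Interferon-stimulated genes were mostly higher in the pDCs of the library labelled Irg1-/-, and their median in other cells was of a like size. Of 49 listed, 24 had at least 20 UMIs in pDCs. Of these, 23 had a log2 ratio above 0 (against 49.7% of all genes at that minimum), 2 were past 2-fold higher (against 3.44%) and none past 2-fold lower (against 4.18%). Their median was 0.59 in pDCs, 0.38 in the cells with 3 to 10 C1q UMIs and 0.51 in all other kept cells of the same libraries. The intervals left out 0 for 7 of the 24. Among the 8 gated cells of the library labelled Irg1-/- and 9 of the library labelled Irg1+/+ without any C1q UMI the median was −0.12.

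Ly6a, an interferon-induced surface antigen, was the most abundant of the list. It had 262 and 428 UMIs, or 1830 CPM (1615 to 2066) and 3047 CPM (2765 to 3350), a log2 ratio of 0.73 (0.51 to 0.96), against 983 and 1436 CPM in other cells. Ifitm3, which blocks viral entry, had 53 and 91 UMIs (0.80, 0.30 to 1.32). Trim30a, an interferon-induced member of the tripartite motif family, had 64 and 100 (0.67, 0.21 to 1.15), and Stat2, which transmits the interferon signal, had 39 and 62 (0.69, 0.10 to 1.31). These 4 were also above 0 in the cells with 3 to 10 C1q UMIs, at 0.43, 0.45, 0.63 and 0.51. The 2 past 2-fold were sparse: Slfn8 with 6 and 22 UMIs (1.82, and −0.59 in the cells with 3 to 10 C1q UMIs) and Ifi44 with 9 and 19 UMIs (1.07, and 1.49). Irf9 was the gene below 0, with 43 and 31 UMIs (−0.44, −1.16 to 0.25). The whole list summed to 8850 and 12374 CPM in pDCs and to 9345 and 13650 CPM in other kept cells. The 16 interferon gamma-responsive genes with at least 20 UMIs had a median of −0.00 in pDCs, 0.16 in the C1q 3 to 10 cells and 0.33 in other cells. That lower median depended on the settings: with at least 50 UMIs it was 0.29, against 0.24 for the interferon-stimulated list, and with no C1q limit 0.50, against 0.49.

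**Figure D4:**
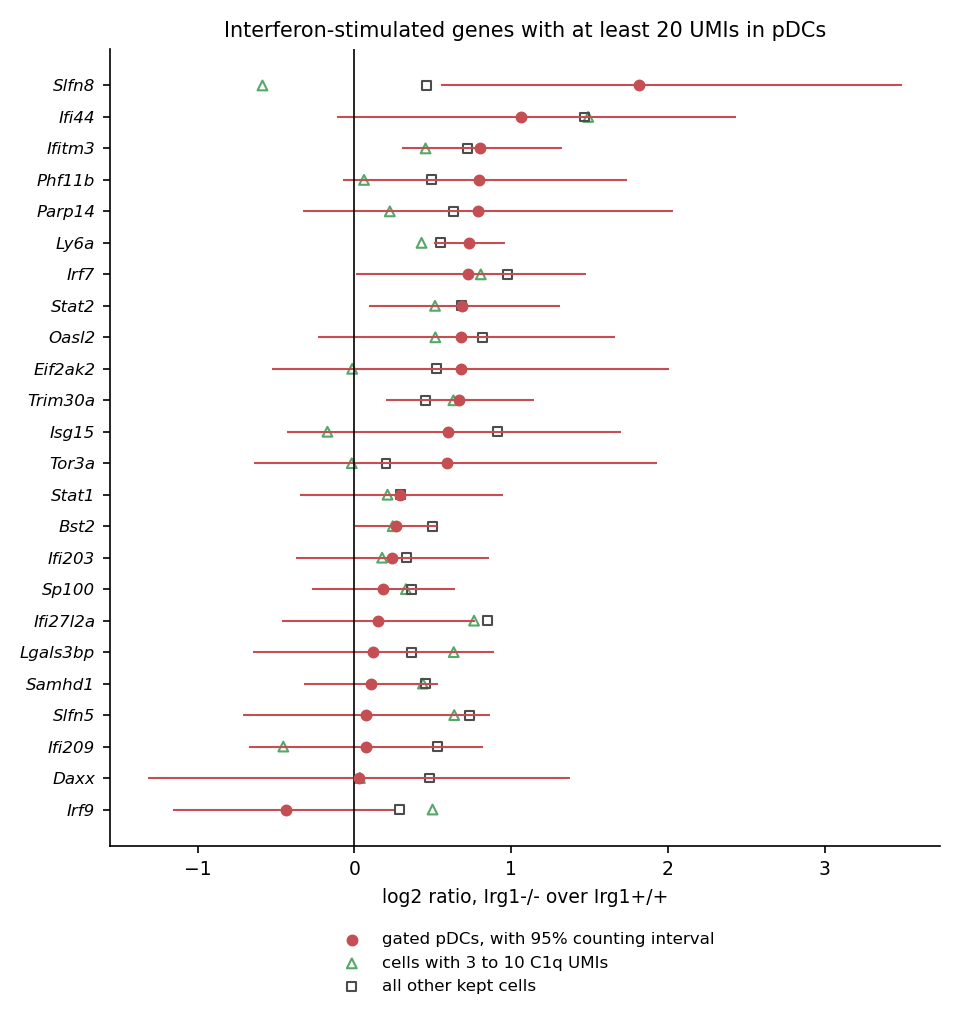
Log2 ratio of the library labelled Irg1-/- over the library labelled Irg1+/+ (x axis) for the 24 interferon-stimulated genes with at least 20 UMIs in pDCs (rows), in gated pDCs (filled points, with the 95% counting interval as a line), in the cells with 3 to 10 C1q UMIs (triangles) and in all other kept cells (squares). In gated pDCs 23 of the 24 points are above 0, all but Irf9, and most lines cross 0.

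MHC class II genes lay below the levels of cDCs, and class I genes did not. H2-Aa, a chain of MHC class II, was at 3150 and 2997 CPM in pDCs, against 9983 and 11628 CPM in cDC1, 10809 and 11233 CPM in cDC2, 7562 and 7208 CPM in B cells and 1588 and 2295 CPM in T cells. T cells hardly make this gene, and the part of free RNA in the pDC level was not tested. Cd74, the invariant chain, was at 3129 and 3311 CPM. Of 7 class II genes with at least 20 UMIs, 1 was past 2-fold higher (against 3.44% of all genes), H2-DMb2 with 5 and 15 UMIs, and the median was −0.13, and 0.0069 in the C1q 3 to 10 cells. The 17 MHC class I genes summed to 18028 and 21004 CPM in pDCs, against 16451 and 17183 CPM in cDC1 and 15505 and 16931 CPM in cDC2. Between the libraries none of them was past 2-fold (against 3.44% of all genes higher and 4.18% lower) (median 0.20, and 0.078 in the C1q 3 to 10 cells), and H2-K1 was at 3492 and 4429 CPM. Costimulation was scarce: Cd80 had 3 and 5 UMIs, Cd86 11 and 4, and Cd83 33 and 20. Only 3 of 24 costimulation and regulation genes reached 20 UMIs, too few to read a count of calls from, and none was past 2-fold (median −0.24, and −0.72 in the C1q 3 to 10 cells).

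Several genes on the list of inhibitory receptors and adaptors were higher in pDCs than in other cells. Of 13 inhibitory receptor and adaptor genes with at least 20 UMIs, 7 were past 4-fold over other cells in each library (against 5.42% of all genes), 1 of them Siglech, which chose the cells. Lair1, a collagen receptor, was at 992 and 1132 CPM against 115 and 128 CPM. Ptprs, a receptor phosphatase, was at 258 and 363 CPM against 32.8 and 29.0 CPM, and Klra17 at 461 and 320 CPM against 13.01 and 20.8 CPM. Tyrobp, the adaptor of Siglech, was at 2598 and 2848 CPM against 1089 and 1303 CPM. Between the libraries 1 of the 13 was past 2-fold higher (against 3.44%), Clec4a3 with 7 and 16 UMIs, and the median was 0.13, and 0.00026 in the C1q 3 to 10 cells.

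The 19 genes of the secretory pathway with at least 20 UMIs had a median log2 ratio over other cells of 0.25 and 0.79. Xbp1, the factor of the unfolded protein response, was at 705 and 740 CPM against 240 and 246 CPM, and Herpud1, which acts in the degradation of misfolded proteins, at 671 and 726 CPM against 218 and 211 CPM. The chaperone Hspa5 was level with other cells, at 2019 and 2136 CPM against 2020 and 2000 CPM. None of 19 secretory genes was past 2-fold between the libraries (against 3.44% of all genes higher and 4.18% lower) or past 4-fold over other cells in each library (against 5.42%), and the median between libraries was 0.19, and 0.05 in the C1q 3 to 10 cells. Cox6a2 was the 1 of 12 cytochrome c oxidase genes past 4-fold over other cells (against 5.42% of all genes), by its place in the gate. Its widely expressed counterpart Cox6a1 was at 335 and 491 CPM, against 441 and 487 CPM in other cells, and the median of the 12 between the libraries was −0.13, and −0.0020 in the C1q 3 to 10 cells.

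Of the trafficking receptors, Ccr2, the receptor for monocyte chemokines, had 52 and 26 UMIs in pDCs, or 363 and 185 CPM, a log2 ratio of −0.96 (−1.71 to −0.27). It was −0.86 in the cells with 3 to 10 C1q UMIs and 0.57 in all other kept cells. A single pDC of the library labelled Irg1+/+ held 16 of the 52 UMIs. None of 10 trafficking genes was past 2-fold (against 3.44% of all genes higher and 4.18% lower) (median 0.05, and −0.06 in the C1q 3 to 10 cells), and Cxcr3 had 13 and 7 UMIs. Ccl4, a chemokine that draws leukocytes, had 243 and 337 UMIs, or 1697 and 2399 CPM, a log2 ratio of 0.50 (0.26 to 0.74). It was 0.55 in the cells with 3 to 10 C1q UMIs and 0.01 in other cells, and the largest share of 1 cell was 51 of the 243 and 74 of the 337 UMIs. None of the 5 chemokines with at least 20 UMIs was past 2-fold either (median −0.01, and −0.40 in the C1q 3 to 10 cells). Proliferation genes were sparse, with 8 and 3 Mki67 UMIs and 2 of 15 cell cycle genes at 20 UMIs or more, neither past 2-fold. With the shares over all genes given above, lists of this size are too small for an absence of calls to say anything about them.

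Markers of other cell types were checked over whole lists. B cell genes summed to 2305 and 2478 CPM in pDCs, led by the immunoglobulin heavy chain Ighm with 1229 and 1339 CPM against 101 and 111 CPM in other cells, while the defining B cell genes Cd79a and Ms4a1 were at 0 UMIs in both libraries. T cell genes summed to 803 and 612 CPM, against 6753 and 6292 CPM in gated T cells, led by Cd8b1 with 286 and 328 CPM (130 and 89.0 CPM in other cells). Between the libraries 2 of the 4 T cell genes with at least 20 UMIs were past 2-fold lower (against 4.18% of all genes). These were Trac with 15 and 6 UMIs and Cd8a with 27 and 11. The median of the 4 was −0.78, with −0.24 in the C1q 3 to 10 cells and −0.55 in all other kept cells. Macrophage and monocyte genes summed to 2249 and 2421 CPM, against 8804 and 9228 CPM in other cells, led by Lyz2, and 1 of 5 was past 2-fold lower between the libraries (against 4.18% of all genes), Cd14 with 18 and 7 UMIs. The median of the 5 was −0.018, and −0.079 in the C1q 3 to 10 cells. cDC1 genes summed to 538 and 484 CPM, led by Clec9a with 251 and 214 CPM, against 3954 and 3360 CPM in gated cDC1, and cDC2 genes to 1055 and 1089 CPM, led by Clec10a, against 3367 and 3407 CPM in gated cDC2. In other kept cells the B cell list summed to 703 and 1153 CPM and the cDC2 list to 824 and 858 CPM, both below pDCs, while the T cell list summed to 1931 and 1442 CPM and the cDC1 list to 890 and 832 CPM, both above pDCs.

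NK cell genes summed to 203 and 399 CPM. Of the 2 with at least 20 UMIs, Gzma was past 2-fold higher (against 3.44% of all genes), with 11 and 29 UMIs in pDCs and 390 and 867 CPM in other cells. Mature dendritic cell genes summed to 175 and 235 CPM, plasma cell genes to 27.9 and 49.8 CPM and neutrophil genes to 27.9 and 57.0 CPM. No erythroid UMI was found. Melanoma genes summed to 161 and 28.5 CPM in pDCs and to 879 and 185 CPM in other cells, led by Dct with 12 UMIs in the pDCs of the library labelled Irg1+/+ and by Tyrp1 with 3 UMIs in those of the library labelled Irg1-/-. Of progenitor genes, Flt3, the receptor of the growth factor that pDCs depend on, was at 363 and 320 CPM against 64.4 and 63.2 CPM, and Il7r at 384 and 641 CPM. At least 3 UMIs of T cell, B cell, cDC1 or neutrophil genes, summed by type, were held by 5 and 3 pDCs. For 4 and 3 of them these were cDC1 genes. This check left out cDC2 and macrophage genes: Cd209a had at least 3 UMIs in 2 and 3 pDCs, and Lyz2 in 23 and 25. Lyz2 stood at 978 and 1225 CPM in pDCs, beside 1239 and 1248 CPM in gated B cells. No pDC was among the 5% of kept cells with the most UMIs. The libraries shared 36 barcodes, among them those of 2 pDCs.

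The genes at the ends of the comparison between libraries were few. Gm47015, a long intergenic RNA at chr10:79412962-79417905 on the − strand (GRCm38), had 0 UMIs in the library labelled Irg1+/+ and 54 in 15 cells of the library labelled Irg1-/-. With the 54 UMIs taken as counted, this was at least 18.3-fold higher against a limit of 3 counts. The counting interval of the log2 ratio reached lower, to 3.85. It had 0 and 34 UMIs in the cells with 3 to 10 C1q UMIs and 10.5 and 74.7 CPM in all other kept cells, so the same direction stood in each set of cells. Bcl2l11, which encodes the death-promoting protein Bim, had 26 and 69 UMIs (1.42, 0.77 to 2.15), and −0.73 in the cells with 3 to 10 C1q UMIs. Rgs10, a regulator of G protein signalling, had 27 and 70 UMIs (1.39, 0.74 to 2.10), with 22 of the 70 in 1 cell, and −0.61 in the cells with 3 to 10 C1q UMIs. Iqgap2, Larp4b, Apc, Spcs3, H2aj, Rab33b and Dync1h1 lay between 1.09 and 1.22. In the C1q 3 to 10 cells none of these 7 was past 2-fold, with Dync1h1 at 0.53, Iqgap2 and Rab33b at 0.08, Spcs3 at 0.03, and the other 3 below 0.

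The largest differences in the other direction came from 1 cell. Hspa1a had 87 and 6 UMIs, a log2 ratio of −3.72, Hspa1b 123 and 21 (−2.49), Hsph1 47 and 8 (−2.45), Hsp90aa1 174 and 51 (−1.73) and Dnaja1 83 and 33 (−1.29). All of these encode heat-shock proteins or their partners. A single cell of the library labelled Irg1+/+ held 80 of the 87, 114 of the 123, 36 of the 47, 102 of the 174 and 39 of the 83 UMIs. Without that cell the log2 ratio of Hspa1b was 1.17, and 2 genes in place of 8 were past 2-fold lower. Of the rest, Tfrc, the transferrin receptor, had 59 and 27 UMIs (−1.09), 1700017B05Rik had 48 and 22 (−1.08), and Septin7 had 47 and 22 (−1.05), while Ostf1 and Tm9sf2 were at −0.99. In the C1q 3 to 10 cells Tfrc was at −0.15, 1700017B05Rik at −0.50 and Septin7 at −0.02, and Ostf1 and Tm9sf2 were above 0. Among 15 dissociation stress genes with at least 20 UMIs, 4 were past 2-fold lower (against 4.18% of all genes), Hspa1a, Hspa1b, Hsp90aa1 and Dnajb1, which are heat-shock genes. The median of the 15 was −0.03, 0.39 in the C1q 3 to 10 cells, 0.25 with 0 C1q UMIs and −0.31 with pDCs thinned to 2000 UMIs each.

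**Figure D5:**
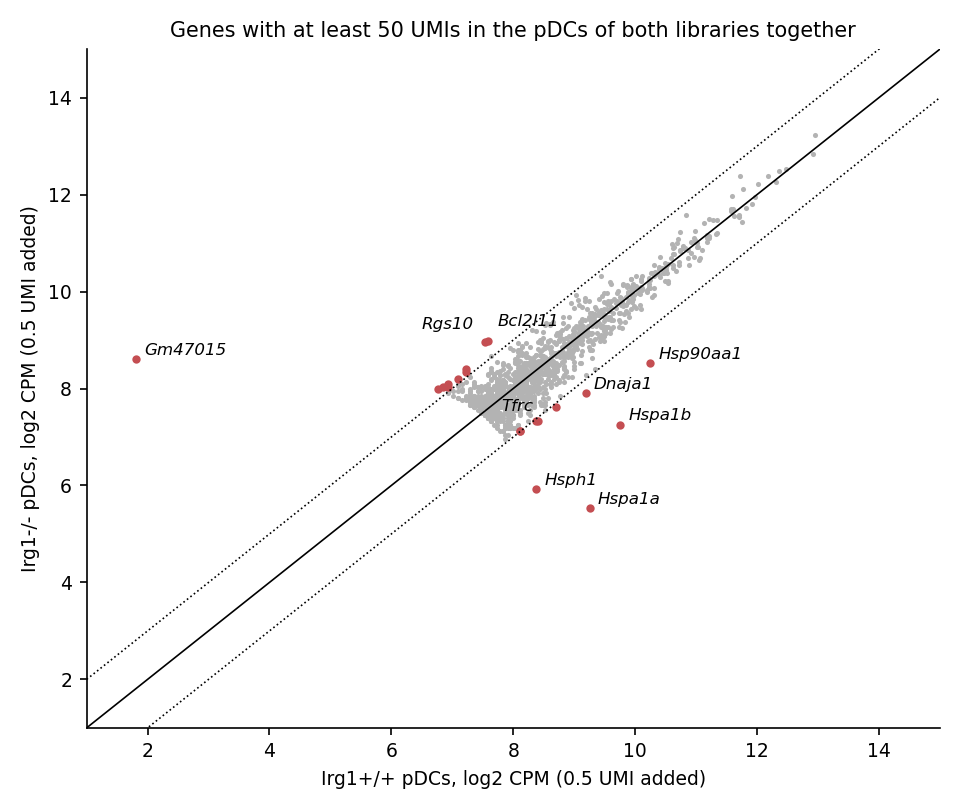
Level of each of 1182 genes with at least 50 UMIs in pDCs, as log2 CPM after adding 0.5 UMI, in the library labelled Irg1+/+ (x axis) and the library labelled Irg1-/- (y axis), with dotted lines at 2-fold. Larger red points mark the 10 highest and 10 lowest log2 ratios among genes with a UMI in at least 20% of pDCs of either library. Some genes past the upper line are thus not red, and Ostf1 and Tm9sf2 (both −0.99) are red but inside the lines. The 13 genes above the upper line and the 8 below the lower one mostly lie close to these lines, beside genes just inside them, with Gm47015 farthest above and the heat-shock genes Hspa1a, Hspa1b and Hsph1 farthest below.

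Acod1 itself was nearly absent from pDCs, with 1 UMI in the library labelled Irg1+/+ and 2 in the library labelled Irg1-/-. Other kept cells held 88.1 and 108 CPM, so the targeted gene was not lower in the library labelled Irg1-/-. A transcript left by the altered allele cannot be told from an intact one in these counts, which are summed over each whole gene.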

How the data were processed

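Per the methods, the authors trimmed reads with fastp, took cell barcodes with UMI-tools, mapped them with STAR (mouse, Ensembl release 100) and deposited raw UMI counts per gene and cell, with no normalization, for 31253 genes. The submitters' notes also name Seurat and build GRCm38. Here cells with under 10% mitochondrial UMIs and more than 200 genes were kept, the 13 mitochondrial genes were left out, and UMIs were summed over gated cells in each library to give CPM, with Poisson intervals, Clopper-Pearson intervals for shares and conditional binomial intervals for log2 ratios (0.5 UMI added). No p-value was computed, since each genotype has 1 library. Genes counted as different were past 2-fold between libraries or 4-fold over other cells in each. Named genes are those of the gate and lists, the 20 highest over other cells, and the 10 highest and 10 lowest between libraries among genes with at least 50 UMIs and a UMI in 20% of cells.

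Comparison gates were cDC1 (Xcr1 and Clec9a at least 2 UMIs), cDC2 (Cd209a at least 2), B cells (Cd79a, Cd79b and Ms4a1 at least 3) and T cells (Cd3d, Cd3e and Cd3g at least 3), each with at most 2 C1q UMIs. They held 81 and 65, 49 and 104, 30 and 38, and 577 and 330 cells. No doublet caller was run, and cells with markers of another type were removed as an alternative instead. The members and lists were chosen with earlier results of these data known. Gene positions come from GENCODE release M21 (31107 identifiers found) and promoters from RefSeq. The work used scipy 1.17.1 and pandas 2.3.3 under Python 3.11.15, and edgeR 4.0.16 for the alternative scaling by TMM factors, and was tested on simulated data.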

Additional observations from a re-analysis of the deposited data

How the results depend on the processing

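With 1 library per genotype, the alternatives below show how far the values depend on the choice of cells and genes and not how mice vary, and 31 and 29 cells limit genes below about 20 UMIs to wide intervals. No paired analysis was possible because each genotype has 1 library. The limits of at most 10 C1q UMIs, the cells with 3 to 10 C1q UMIs alone, the removal of shared barcodes, of 1 cell and of other cells meeting the thresholds were chosen after seeing the data. The log2 ratio of the pDC shares stayed between −0.16 and 0.23 under 12 alternatives. The shares were 0.143% and 0.138% with 0 C1q UMIs, 1.18% and 1.09% with no C1q limit, 1.07% and 1.00% with at most 10, and 0.917% and 0.866% when each kept cell was thinned to 2000 UMIs before the gate.

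Against 13 genes past 2-fold higher there were 7 with at least 3 Siglech UMIs per cell, 3 with 0 C1q UMIs, 40 with no C1q limit, 21 with at most 10 C1q UMIs, 26 in the cells with 3 to 10, 4 with kept cells thinned before the gate, 3 with pDCs thinned, 107, 0 and 1821 with at least 20, at least 100 and no minimum of UMIs. Against 8 lower there were 13 with a sum of at least 6, 3 with 0 C1q UMIs, 106 with no C1q limit, 17 with at most 10, 19 in the cells with 3 to 10, 13 with mitochondrial UMIs under 5%, 13 without cells holding markers of other types, 22 by the mean of each cell's CPM, 5 with pDCs thinned, 130, 3 and 2217 with the 3 minimums, and 2 without the cell richest in Hspa1a and Hspa1b. Against 80 past 4-fold over other cells there were 16 with 0 C1q UMIs, 146 with no limit, 177 with at most 10, 49 with kept cells thinned before the gate, and 168 and 36 with at least 20 and at least 100 UMIs. Fewer cells or a higher minimum leave fewer genes to compare, and more cells or a lower minimum leave more. Between the libraries 1182 genes were compared as reported. There were 188 with 0 C1q UMIs, 4019 with no C1q limit, 3063 with at most 10 and 1903 in the cells with 3 to 10. Kept cells thinned before the gate left 599, pDCs thinned 355, and the 3 minimums 3107, 483 and 10622. The counts past 2-fold are to be read beside these totals.

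The median of interferon-stimulated genes (0.59) was −0.12 with 0 C1q UMIs, 0.24 with at least 50 UMIs, 0.35 with at most 10 C1q UMIs and 0.24 in the cells with 3 to 10, where genes were filtered anew. That of MHC class II was 0.34 with no C1q limit. That of sensing genes was −0.23 with 0 C1q UMIs and 0.35 with mitochondrial UMIs under 5%. That of inhibitory receptors (0.13) was −0.22 with kept cells thinned before the gate, −0.10 by the mean of each cell's CPM and 0.37 with 0 C1q UMIs, and that of MHC class I (0.20) was 0.44 with 0 C1q UMIs. That of pDC genes outside the gate was −0.032 with kept cells thinned before the gate, 0.0028 with at most 10 C1q UMIs and −0.18 in the cells with 3 to 10, and that of secretory genes −0.0019 with kept cells thinned.

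Single genes turned sign mainly in the cells with 3 to 10 C1q UMIs: Bcl2l11 (−0.73), Rgs10 (−0.61), Larp4b (−0.29), Apc (−0.29), H2aj (−0.57), Hspa1a (0.39), Hspa1b (0.090), Hsph1 (0.14), Hsp90aa1 (0.26), Ostf1 (0.11) and Tm9sf2 (0.13). With kept cells thinned before the gate Rgs10 was −0.12, H2aj −0.10 and Ostf1 1.03. With 0 C1q UMIs H2aj was −0.49 and Hspa1b 2.11, with at most 10 H2aj was −0.027, and without the 1 heat-shock cell Hspa1b was 1.17. Gm47015 had 0 UMIs in the gated cells of the library labelled Irg1+/+, so its log2 ratio is set by the added pseudocount (4.83 with 2 UMIs) and is no bound. The cause of these changes was not tested.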
